A study of Mus musculus with 16 samples.

Results

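The genes described here are the replication-dependent histone genes of the mouse, the clustered genes that supply core and linker histones to cells copying their DNA. They were chosen by symbol, as every row of the deposited expression files whose name starts with Hist1h, Hist2h, Hist3h or Hist4h. This gave 63 of 18480 rows, of which 6 encode H1, 16 H2A, 17 H2B, 11 H3 and 13 H4. The Hist1 cluster on chromosome 13 holds 52 of them, Hist2 holds 8, Hist3 holds 2 and Hist4 holds 1.

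The 16 libraries came from tumours that MC38, a cell line of mouse colon carcinoma, formed as subcutaneous grafts in mice. The groups are control, exercise, anti-PD-L1 (an antibody against the ligand of the immune checkpoint receptor PD-1) and exercise together with anti-PD-L1, called the combination here, with 4 libraries each. All groups carry the same graft. The title of the series speaks of PD-1 blockade while the sample labels name the ligand, and the labels are followed here. The sources used here give no strain, age, dose or duration. They do not say either that each library is a separate animal, so the p-values measure the spread between libraries, and that spread may be technical.

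Each nucleosome wraps DNA around H2A, H2B, H3 and H4, and H1 binds the linker between nucleosomes. Replication-dependent histone mRNAs are made mainly in S phase. Unlike other mRNAs, most of them have no poly(A) tail and end just after a short stem-loop that binds the protein SLBP. Some of these genes also give longer, polyadenylated mRNAs, mostly in cells that have left the cycle, and Hist1h1c, Hist1h2bc and Hist2h2be are known examples. A library made from polyadenylated RNA therefore holds little of the stem-loop form, and the sources used here do not say how RNA was selected for these libraries.

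The stem-loop is shown first because it is the feature these mRNAs share and because the annotated transcripts differ in how far they run past it. In the GENCODE M21 transcripts (build GRCm38) it was found, as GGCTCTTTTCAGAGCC or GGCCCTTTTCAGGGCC, in 30 of the 63 members, against 36 of all 55341 genes with transcripts, or 0.0651%. The first form stood in 23 members of the H1, H2A, H2B and H3 types, and the second in 7 members, all of type H4. The lines below give 5′ to 3′ the stem-loop with its flanks for 6 members that the results turn on, with the loop in capitals.
Hist1h2ap: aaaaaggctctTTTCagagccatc
Hist2h2aa1: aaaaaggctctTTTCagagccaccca
Hist1h1c: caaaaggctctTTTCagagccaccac
Hist1h2ac: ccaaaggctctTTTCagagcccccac
Hist2h3c2: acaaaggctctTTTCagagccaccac
Hist1h4n: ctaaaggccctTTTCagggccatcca
The stem of the H4 form differs from the others in both arms. Past the stem-loop, the annotated transcript ran on for 3 bases in Hist1h2ap, 31 in Hist1h4n and 35 in Hist2h2aa1. It ran on for 377 bases in Hist2h3c2, 840 in Hist1h1c and 2010 in Hist1h2ac. Over the 30 members, 15 transcripts went more than 100 bases beyond the stem-loop and 15 stopped within 100 bases. No match was found in the remaining 33, whose annotated transcripts often cover the coding part alone, so a missing match says only that these letters are not in the annotated sequence.

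Levels were given as FPKM, fragments per kilobase of transcript relative to all mapped fragments, which can be compared between genes because they are set per length. Most of the family was close to 0 in these tumours. The mean over the 16 libraries was under 1 FPKM for 44 of the 63 members and under 0.1 FPKM for 14. Between 13 and 27 members reached 1 FPKM in a library, and between 11 and 28 were listed at 0. The 63 members summed to between 380.65 and 1064 FPKM per library, which was 0.0761% to 0.214% of the sum over all genes.

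A single row, listed under the H2A gene Hist1h2ap, made up much of that sum. Hist1h2ap (chr13:21833026-21833507, minus strand, 1 exon) had a mean of 466 FPKM and made up 44.4% to 85.0% of the histone sum. Next came Hist1h2bc, an H2B gene (chr13:23684199-23692908, plus strand), with a mean of 81.8 FPKM. Hist1h1c, the gene for linker histone H1.2 (chr13:23738808-23740367, plus strand), had a mean of 65.7 FPKM. The H2A gene Hist2h2aa1 (chr3:96245497-96246082, plus strand) had a mean of 27.8 FPKM. These 4 genes together gave 88.3% to 96.1% of the histone sum in each library. The next levels were far lower, at 6.18 FPKM for Hist1h2ai, 5.43 for Hist2h2be, 3.71 for Hist1h4n and 3.33 for Hist1h2ac. The highest H3 gene was Hist2h3b, with a mean of 2.47 FPKM. Hist1h1t and Hist1h2aa, which are known from the testis, stayed under 1 FPKM in every library.

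**Figure D1:**
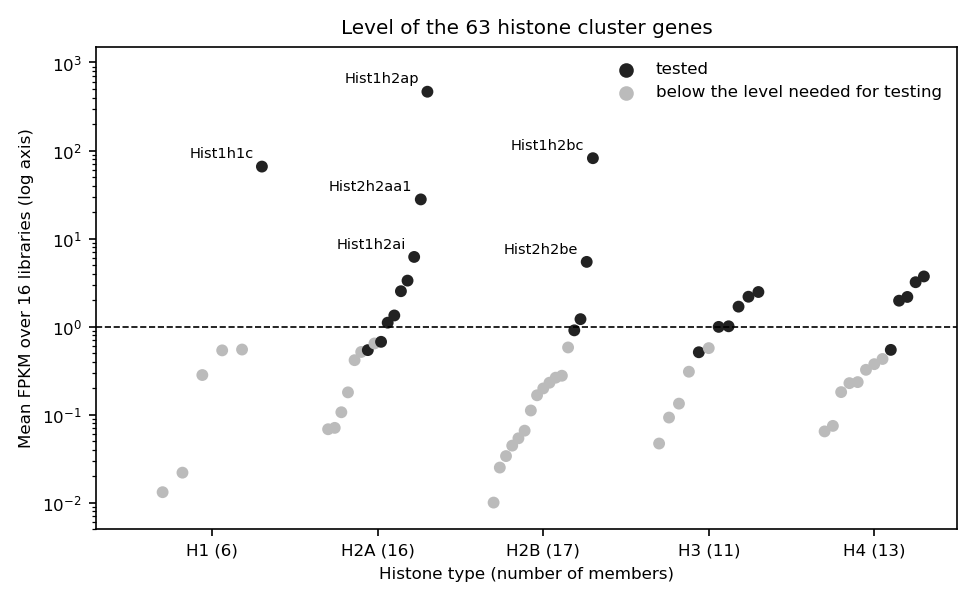
Mean FPKM over the 16 libraries on a log axis for each of the 63 members, one point per gene, by histone type with the number of members in brackets. Black points are the 25 members tested, grey points the 38 below the level needed for testing, and the dashed line marks 1 FPKM. Hist1h2ap, Hist1h2bc, Hist1h1c and Hist2h2aa1 stand above all others.

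Histone genes of one type are close copies of each other, which bears on how far a value belongs to its own gene. The share of 50-base stretches of a member's annotated transcripts that also occur in transcripts of another gene had a median of 49.3%, and it was over 50% in 29 members. It was 93.1% for Hist1h2ap, whose closest copy is Hist1h2ao, and 90.1% for Hist1h2ai. For Hist2h2aa1 it was 89.4%, and that gene overlaps the annotated genes Gm20633, Gm20634 and Gm47313. For other members it was 30.1% for Hist1h2bc, 14.1% for Hist1h2ac, 8.54% for Hist1h1c and 0 for Hist2h2be. Among the members named in this paragraph, the last 4 are thus the ones whose values rest most on sequence of their own. Some tested members not named here, such as Hist1h4i at 28.9%, shared less than Hist1h2bc. How reads that fit several genes were assigned is not given in the sources used here, and values of Hist1h2ap, Hist1h2ai and Hist2h2aa1 are uncertain to that extent. GENCODE M21 lists 70 genes under these names, and 7 of them, Hist1h2ao among them, have no row under these names in the deposited values. How much of the Hist1h2ap value belongs to Hist1h2ao can therefore not be told.

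Differences between groups were tested on log2(FPKM + 1) with limma over the 11868 genes that reached 1 FPKM in at least 4 libraries, with Benjamini-Hochberg adjustment over all of them and a threshold of 0.05. Of the members, 25 entered the test, namely 1 H1, 9 H2A, 4 H2B, 6 H3 and 5 H4 genes. The other 38 did not reach that level. On this scale the changes of genes with low values are understated.

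The linker histone gene Hist1h1c was lower in the control libraries than in most others. It measured 38.51, 46.16, 23.42 and 61.26 FPKM in the controls and 51.27, 104.56, 96.26 and 75.67 FPKM under exercise. Under anti-PD-L1 it measured 38.34, 26.87, 89.82 and 95.28 FPKM, and in the combination 92.02, 98.24, 55.79 and 57.5 FPKM. The anti-PD-L1 group was split, with libraries 1 and 2 inside the range of the controls and libraries 3 and 4 well above it, and the combination was split as well. The log2 difference from control was 0.97 ± 0.40 (SE) for exercise, with an adjusted p of 0.234, and 0.86 ± 0.40 for the combination, with an adjusted p of 0.607. The 95% limits for exercise ran from 0.11 to 1.82, and the groups overlapped. The other 5 H1 genes were not tested, and among them Hist1h1b and Hist1h1e, which encode H1.5 and H1.4, had the highest values, up to 1.57 and 1.22 FPKM in a library.

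Among the H2A genes, Hist1h2ap was lowest under anti-PD-L1. It measured 448.38, 699.09, 466.24 and 336.75 FPKM in the controls and 904.58, 515.3, 346.28 and 356.5 FPKM under exercise. It measured 252.36, 222.85, 429.05 and 267.12 FPKM under anti-PD-L1 and 500.74, 414.47, 620.01 and 669.59 FPKM in the combination. Of the 4 anti-PD-L1 libraries, 3 lay below every other library, and the other, library 3, lay inside the range of each other group. The means were 488 ± 152 (SD, n = 4) in the controls, 531 ± 261 under exercise, 293 ± 92.6 under anti-PD-L1 and 551 ± 115 in the combination. On the log2 scale anti-PD-L1 differed from control by -0.73 ± 0.30 (adjusted p = 0.165) and the combination from anti-PD-L1 by 0.93 ± 0.30 (adjusted p = 0.968), so no difference passed the threshold.

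Hist1h2ai and Hist1h2ac were the 2 members with the smallest p between anti-PD-L1 and control, in opposite directions. Hist1h2ai measured 12.04, 5.72, 14.42 and 6.75 FPKM in the controls and 1.24, 1.88, 0 and 2.35 FPKM under anti-PD-L1. It measured 12.16, 8.41, 7.96 and 4.92 FPKM under exercise and 10.94, 2.78, 0 and 7.3 FPKM in the combination. All anti-PD-L1 libraries lay below all control and all exercise libraries, while the combination spanned both. The log2 difference from control was -2.23 ± 0.62, with an adjusted p of 0.0829. Hist1h2ac measured 1.12, 0, 1.67 and 2.59 FPKM in the controls and 0, 3.22, 2.44 and 2.38 FPKM under exercise. It measured 3.73, 4.74, 4.89 and 11.65 FPKM under anti-PD-L1 and 2.48, 4.13, 2.88 and 5.29 FPKM in the combination. Here the anti-PD-L1 libraries lay above all control and all exercise libraries, while combination 2 and 4 fell inside their range. The log2 difference of anti-PD-L1 from control was 1.66 ± 0.47, with an adjusted p of 0.0835.

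Hist2h2aa1 measured 15.57, 10.71, 16.15 and 24.54 FPKM in the controls and 25.18, 23.11, 41.47 and 54.9 FPKM under anti-PD-L1. It measured 12.87, 24.33, 39.27 and 24.29 FPKM under exercise and 36.92, 60.19, 19.06 and 16.77 FPKM in the combination. The control range lay mostly below the anti-PD-L1 range, with control 4 inside it, and the difference was 1.04 ± 0.42 (adjusted p = 0.16). Hist3h2a, the H2A gene of the small cluster on chromosome 11, was lower under anti-PD-L1 (1.54, 1.38, 1.89 and 0.94 FPKM) than under exercise (2.11, 3.67, 4.12 and 3.14 FPKM). Its controls measured 3.55, 4.85, 0.95 and 2.02 FPKM and its combination libraries 3.27, 1.67, 2.56 and 2.68 FPKM. Its groups did not overlap between anti-PD-L1 and exercise, and the log2 difference was -0.80 ± 0.27 (adjusted p = 0.113). This gene overlaps Trim17, with which it shares sequence. The remaining tested H2A genes named by the rule, Hist1h2ad, Hist1h2ae and Hist1h2ag, were listed at 0 in several libraries of different groups. Their highest values were 5.05, 1.47 and 6.52 FPKM, all under exercise.

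Of the H2B genes, Hist1h2bc was lowest in 3 control libraries and in exercise library 1. It measured 44.54, 58.74, 51.31 and 86.86 FPKM in the controls and 54.01, 91.62, 98.59 and 73.46 FPKM under exercise. It measured 62.35, 65.07, 122.35 and 135.34 FPKM under anti-PD-L1 and 87.11, 124.66, 67.05 and 86.16 FPKM in the combination. Every pair of groups overlapped, and the largest difference, 0.62 ± 0.29 between anti-PD-L1 and control, had an adjusted p of 0.204. Hist2h2be (chr3:96221119-96223738, plus strand) varied little between libraries. It measured 4.32, 5.05, 4.35 and 6.35 FPKM in the controls and 5.01, 7.94, 6.68 and 6.54 FPKM under exercise. It measured 4.58, 4.91, 3.94 and 3.27 FPKM under anti-PD-L1 and 6.44, 6.22, 5.77 and 5.48 FPKM in the combination. All anti-PD-L1 libraries lay below all exercise and all combination libraries. The difference from exercise was -0.54 ± 0.14, the smallest adjusted p of any member in any comparison, 0.0598, and the combination lay above anti-PD-L1 by 0.44 ± 0.14 (adjusted p = 0.968).

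Hist1h2bq and Hist1h2br share 97.3% and 88.7% of their 50-base stretches with other genes, mostly with each other, and were listed at the same value in 8 libraries. Hist1h2bq ranged from 0.03 to 1.82 FPKM in the controls and from 1.17 to 2.91 FPKM in the combination. Its difference between these groups was 0.90 ± 0.33, with an adjusted p of 0.592. Hist1h2br reached its highest value, 2.7 FPKM, in anti-PD-L1 library 4. The other 13 H2B genes stayed under the testing level, and the highest value among them was 1.79 FPKM, for Hist1h2bg in exercise library 3.

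All H3 and H4 genes were low. Hist2h3b, an H3 gene of the Hist2 cluster, measured 2.76, 1.4, 1.01 and 3.77 FPKM in the controls and 2.26, 3.13, 3.83 and 1.42 FPKM under exercise. It measured 1, 2.36, 1.19 and 0 FPKM under anti-PD-L1 and 3.55, 5.27, 3.7 and 2.85 FPKM in the combination. All combination libraries lay above all anti-PD-L1 libraries, with a difference of 1.28 ± 0.34 and an adjusted p of 0.968. Hist1h3i differed between these groups by 0.61 ± 0.23 and Hist1h3b by 0.59 ± 0.28, both with the same adjusted p. The H3 sum was 7.51 ± 0.337 FPKM (SD, n = 4) under anti-PD-L1, the narrowest spread of the 4 groups, and 9.59 ± 2.00 in the controls, 10.7 ± 4.05 under exercise and 12.1 ± 2.76 in the combination.

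Hist1h4k was the H4 gene with the clearest separation. It measured 1.01, 0.88, 1.66 and 1.26 FPKM in the controls and 1.54, 3.1, 3.66 and 2.13 FPKM under exercise. It measured 1.69, 2.43, 3.37 and 1.71 FPKM under anti-PD-L1 and 3.06, 2.78, 2.3 and 2.13 FPKM in the combination. The controls lay below all libraries of the anti-PD-L1 and combination groups, and exercise library 1 fell inside the control range. The log2 differences from control were 0.69 ± 0.20 for exercise (adjusted p = 0.181), 0.57 ± 0.20 for anti-PD-L1 (adjusted p = 0.121) and 0.70 ± 0.20 for the combination (adjusted p = 0.572), comparisons that share the control libraries. Hist1h4n, the H4 gene with the highest mean, measured 3.47, 2.21, 2.2 and 4.04 FPKM in the controls and 2.56, 2.11, 5.58 and 7.05 FPKM under anti-PD-L1. It measured 0.66, 2.05, 6.2 and 2.79 FPKM under exercise and 5.22, 5.1, 5.2 and 2.91 FPKM in the combination. Its groups overlapped throughout. Hist1h4i reached 7.9 to 8.14 FPKM in exercise libraries 3 and 4 and combination library 1, and was listed at 0 in control 3 and in anti-PD-L1 libraries 3 and 4.

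**Figure D2:**
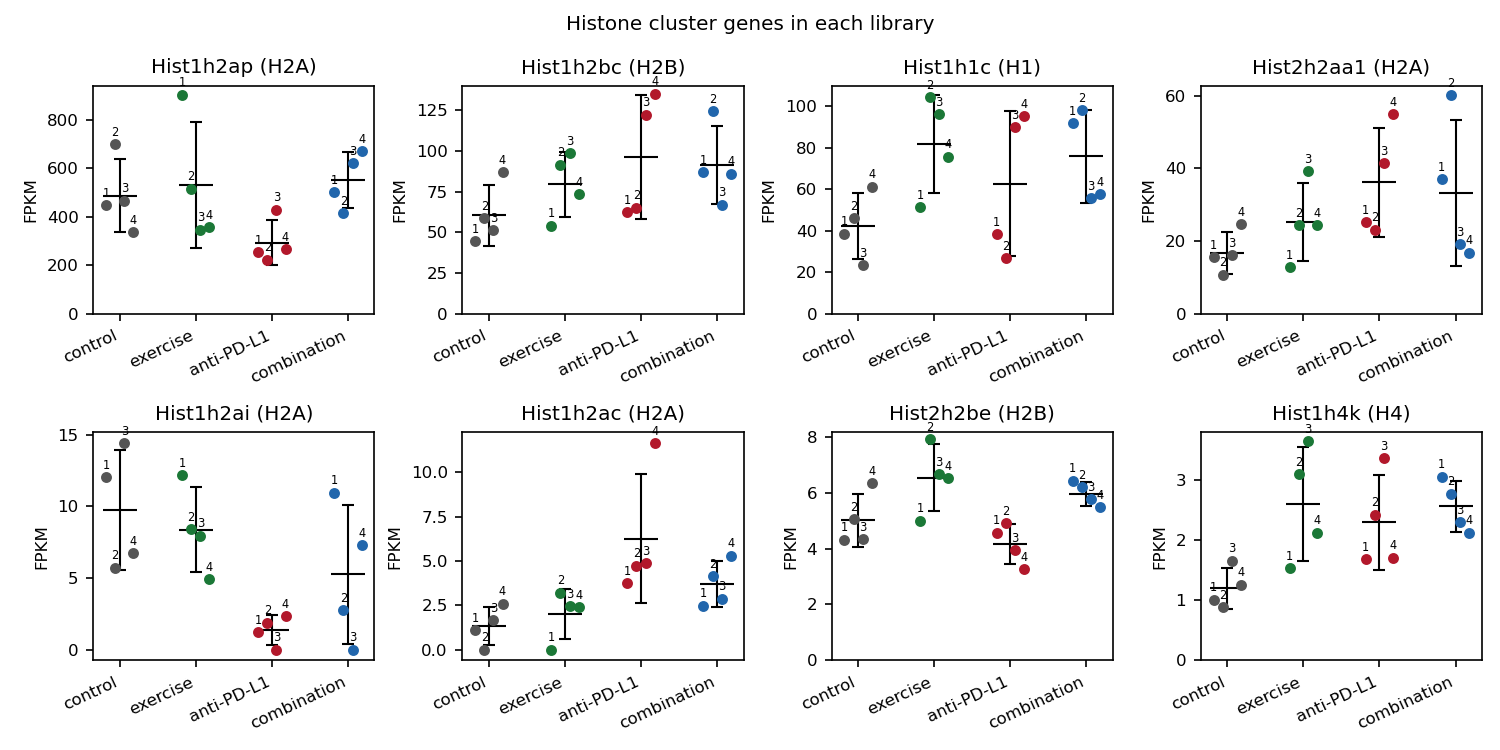
FPKM of 8 histone cluster genes in each library, one panel per gene, with the 4 groups along the horizontal axis. Points are libraries with their numbers, the wide bar is the group mean and the whiskers are 1 SD (n = 4). All anti-PD-L1 libraries lie below all control and exercise libraries for Hist1h2ai and above them for Hist1h2ac, and the combination overlaps anti-PD-L1 for both. For Hist1h1c the anti-PD-L1 and combination groups each fall into 2 high and 2 low libraries.

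For anti-PD-L1 against control, which asks what the antibody alone went with, 0 of the 25 tested members passed the threshold, where 0.253% of all genes tested did. At an unadjusted p under 0.05 there were 6 members, or 24%, near the 23.5% of all genes. Of these, Hist1h2ac, Hist1h4k, Hist2h2aa1 and Hist1h2bc were higher and Hist1h2ai and Hist1h2ap lower. Members whose groups did not overlap numbered 2 higher, where 3.57% of all genes did so, and 1 lower, where 7.26% did. The median log2 difference was -0.15 over the tested members, 10 above and 15 below 0, and -0.04 over all genes. Of all genes, 6844 of 11868 lay below 0. The H2A and H3 medians lay below 0, at -0.29 and -0.25, and the H2B and H4 medians above it, at 0.50 and 0.14. Among all 63 members the mean was higher in 23, lower in 35 and equal in 5. Leaving out control 4 or exercise 1 brought Hist1h2ac past the threshold (adjusted p = 0.0414 and 0.0346), where 6.47% and 2.67% of all genes then passed. Leaving out combination 3 did so for Hist1h2ai (adjusted p = 0.0407), where 0.725% of all genes passed. The median over the members was -0.04 without anti-PD-L1 3, -0.05 without control 4 and -0.07 without control 1.

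For exercise against control, 0 of 25 members passed, as for all genes (0%). An unadjusted p under 0.05 was reached by Hist1h4k, Hist1h1c and Hist2h2be, all higher with exercise, which is 12% of the members against 18% of all genes, 8.03% of them higher. No member's groups were free of overlap, in contrast to 4.21% of all genes higher and 3.51% lower. The median was 0.24 over the tested members, 19 above and 6 below 0, and -0.02 over all genes. Of all genes, 5482 of 11868 lay above 0. H2B members all lay above 0, with a median of 0.36. Without exercise library 1, Hist1h4k passed the threshold (0.84 on the log2 scale, adjusted p = 0.0281) where 5.15% of all genes then passed, and the median over the members was 0.43. The median was 0.14 without exercise 2 and 0.15 without exercise 3. In exercise library 1 Hist1h2ap was at its highest and Hist1h2ac and Hist1h2ae were listed at 0.

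For the combination against control, 0 of 25 members passed (0% of all genes). Hist1h4k, Hist1h2bq, Hist1h2ac and Hist1h1c had an unadjusted p under 0.05, all higher in the combination, which is 16% of members against 8.2% of all genes, 3.01% of them higher. Hist1h4k alone had groups without overlap, higher, where 1.46% of all genes did, and 2.37% were lower. The median was 0.34, 17 above and 8 below 0, and -0.03 over all genes, of which 4971 of 11868 lay above 0. The median over the members was 0.19 without combination 1 and 0.20 without control 3. For the combination against anti-PD-L1, which asks what exercise went with under the antibody, 0 of 25 passed (0% of all genes). Hist2h3b, Hist2h2be, Hist1h2ap and Hist1h3i had an unadjusted p under 0.05, again all higher, or 16% against 3.94% of all genes, 2.25% of them higher. Hist2h3b and Hist2h2be were free of overlap, where 1.4% of all genes were so in that direction and 0.843% in the other. The median was 0.32, 17 above and 8 below 0, and 0.02 over all genes, of which 6550 of 11868 lay above 0. The median over the members was 0.16 without anti-PD-L1 2. These 4 members are of 3 types, and H2B as a type had 2 members above and 2 below 0.

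For the combination against exercise, 0 of 25 passed (0% of all genes), and 3 members, or 12%, had an unadjusted p under 0.05 against 13.6% of all genes. These were Hist1h2bq and Hist1h3i, higher, and Hist1h2ae, lower. None was free of overlap, where 3.21% of all genes were higher and 3.73% lower without it. The median was 0.02 over the members, from -0.14 without exercise 1 to 0.08 without exercise 2, and -0.02 over all genes. For anti-PD-L1 against exercise, 0 of 25 passed, where 1.58% of all genes did, and 7 members, or 28%, had an unadjusted p under 0.05 against 22.8%. Hist1h2ac was higher under anti-PD-L1 without overlap, where 4.42% of all genes were, and Hist2h2be, Hist1h2ai and Hist3h2a were lower without overlap, where 8.07% were. The median was -0.18, with 17 of 25 members below 0, and -0.04 over all genes, of which 6635 of 11868 lay below 0. It was -0.33, -0.30 and -0.27 without anti-PD-L1 4, exercise 2 and anti-PD-L1 3. In the group means, 44 of all 63 members had the lower mean under anti-PD-L1. Hist2h2be passed the threshold under quantile normalization (adjusted p = 0.0469) and without exercise 1 (adjusted p = 0.0384), where 2.51% and 1.33% of all genes passed. Hist1h2ai passed when only the 2 groups were fitted (adjusted p = 0.0376) and without combination 3 (adjusted p = 0.0375), where 1.77% and 1.38% of all genes passed.

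The interaction, which asks whether exercise went with a different change under the antibody than without it, passed for 0 of 25 members (0% of all genes). Hist1h3i, at 0.76 ± 0.32, and Hist2h3b, at 1.07 ± 0.48, had an unadjusted p under 0.05, or 8% against 13.1% of all genes. For Hist1h2ap the interaction was 0.88 ± 0.42, with an adjusted p of 0.39. The median over the members was 0.01, with 13 above and 12 below 0, and went from -0.13 without exercise 1 to 0.12 without exercise 2.

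**Figure D3:**
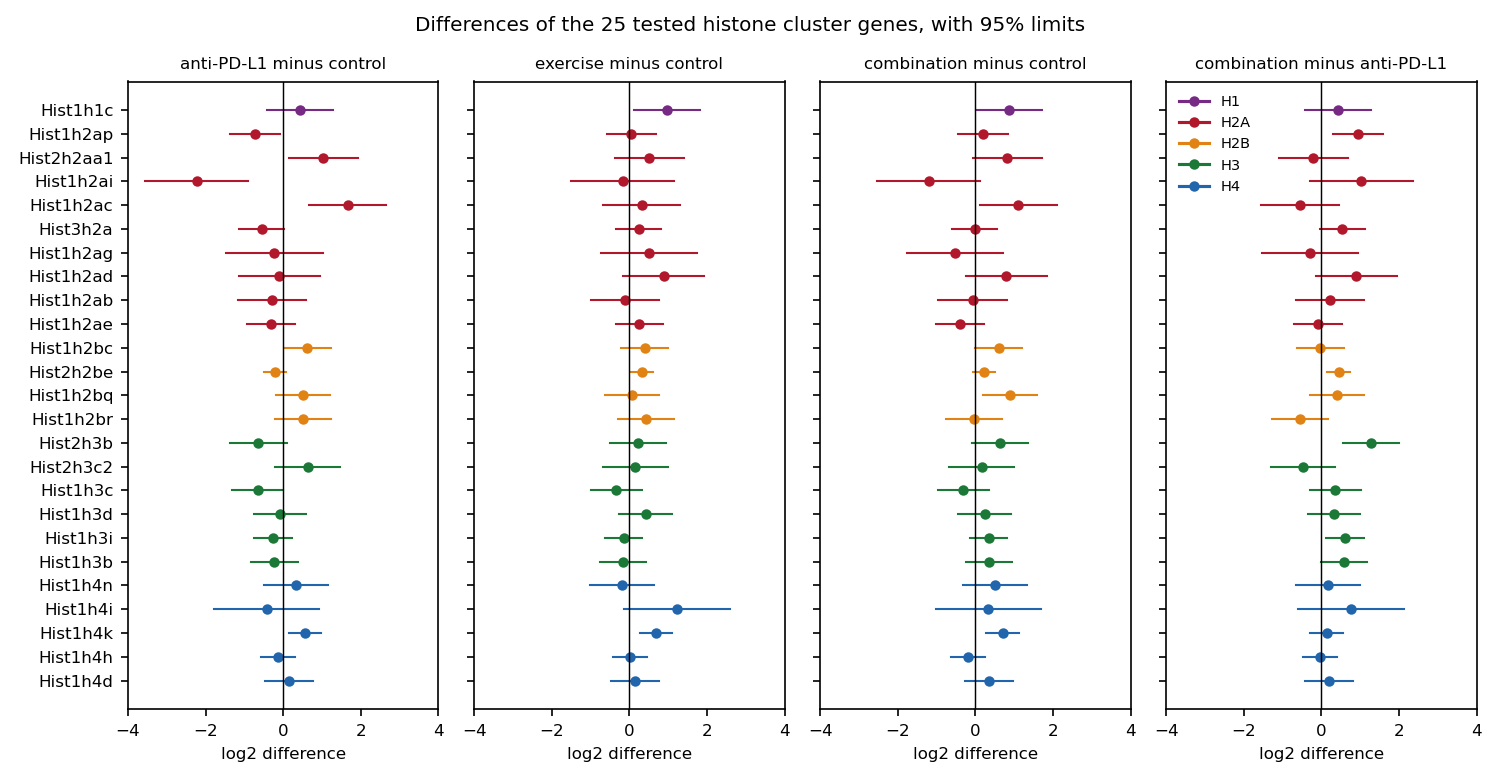
Log2 difference on the log2(FPKM + 1) scale with its 95% limits for the 25 tested members, ordered by histone type and mean level, in 4 comparisons. Lines to the right of 0 mean higher in the first-named group. No member passed the threshold in any of them, and the limits of Hist1h2ai and Hist1h2ac lie on opposite sides of 0 for anti-PD-L1 against control.

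Summed over all members of a type, the H2A genes gave the highest level in every group. The H2A sum was 523 ± 145 FPKM (SD, n = 4) in the controls, 578 ± 251 under exercise, 341 ± 99.5 under anti-PD-L1 and 601 ± 97.7 in the combination, and most of it was Hist1h2ap. The H1 sum, nearly all Hist1h1c, was 43.2 ± 15.7, 83.6 ± 24.7, 63.8 ± 35.1 and 77.8 ± 22.6 FPKM in the same order. The H2B sum, mostly Hist1h2bc, was 68.0 ± 20.0, 90.3 ± 23.2, 106 ± 37.1 and 102 ± 24.02 FPKM. The H4 sum was 10.8 ± 2.27, 16.7 ± 7.15, 11.8 ± 1.95 and 14.7 ± 5.31 FPKM. The sums of the core histone types were thus not alike in these values, since the H3 and H4 sums were at most 15.37 and 25.43 FPKM in a library. Whether the mRNA amounts of the types differ likewise cannot be told. Most of the H2A sum is a row of uncertain read assignment, some copies have no row, and the RNA selection is not given.

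The tested members varied more between libraries of a group than other genes of their level. Their median within-group SD was 0.51 on the log2 scale, against 0.18 over all genes tested. Set beside genes within 0.25 log2 units of their mean level, 24 of the 25 lay above the median SD, and the median member stood at the 90.7th percentile. These genes were matched by level and not by transcript length. Many members have short annotated transcripts, which hold fewer fragments at the same FPKM. The part of transcript length and of shared sequence in this spread was not tested. In bulk tissue, fewer cells of a type and less RNA per cell cannot be told apart, here or in what follows.

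Part of the spread within groups went along with the genes of DNA replication, a relation noticed after the values were seen. For each library the mean log2(FPKM + 1) of 44 genes for DNA replication and S phase was taken, which ranged from 4.19 in anti-PD-L1 4 to 5.27 in control 1. In 4 of 4 groups the 2 libraries highest in Hist1h1c and in Hist1h2bc were the 2 lowest in this mean, and also the 2 lowest in Pcna, the sliding clamp of the replication fork. The 6 libraries highest in Hist1h1c were the 6 highest in Hist1h2bc, namely exercise 2 and 3, combination 1 and 2 and anti-PD-L1 3 and 4. Hist1h2ap did not follow the order against the replication mean and shared it in 1 group of 4. Among the other tested members it was shared in 3 groups at most, by Hist2h2aa1 and Hist2h2be, and in 0 by Hist1h2ai and Hist1h4i. Hist1h3d had the opposite order in 2 groups. The share of all genes with this order was not determined.

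Over the 16 libraries, Hist1h2bc had a Pearson r of -0.854 with the replication mean (permutation p = 1e-05, the smallest that 100000 permutations can give) and a Spearman rho of -0.90 with the same p. Hist2h2aa1 had an r of -0.857 (permutation p = 3e-05) and a rho of -0.915 (permutation p = 1e-05), and Hist1h1c an r of -0.622 (permutation p = 0.0098) and a rho of -0.706 (permutation p = 0.00308). With the group means removed, r was -0.851, -0.816 and -0.758 for Hist1h2bc, Hist2h2aa1 and Hist1h1c. Without control 1 and anti-PD-L1 4, the 2 libraries farthest from the median of the replication mean, r was -0.776, -0.844 and -0.581. In the slope fit described next, Hist1h1c did not pass the threshold without control 1 (adjusted p = 0.0571) or without anti-PD-L1 4 (adjusted p = 0.0533). All 3 relations were negative, with and without these 2 libraries.

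The same relation was fitted for all 11868 genes with limma, as a slope on the replication mean, and adjusted over all of them. A negative slope passed the threshold for 6 of the 25 members, or for 7.31% of all genes, and these were Hist2h2aa1 (-2.15 ± 0.32, adjusted p = 0.000147), Hist1h2bc (-1.45 ± 0.22, adjusted p = 0.000143), Hist1h2ac, Hist2h3c2, Hist1h4n and Hist1h1c (-1.51 ± 0.48, adjusted p = 0.0279). The last 4 had r between -0.792 and -0.622. A positive slope passed for Hist1h2ap alone (1.28 ± 0.38, adjusted p = 0.0216; r = 0.637, permutation p = 0.00778, and rho = 0.544, permutation p = 0.0322), where 18.7% of all genes had one. Without exercise 1 or anti-PD-L1 4 the adjusted p of Hist1h2ap was 0.071 and 0.0646. With the group as a term, a negative slope passed for 7 of 25 members, where 2.7% of all genes did, and a positive one for 0, where 9.2% did. The 7 were the same 6 genes and Hist1h2ad, and this count was 3 without exercise 1 and 4 without anti-PD-L1 4. Within groups Hist1h2ad, Hist2h3c2 and Hist1h2ac each did not pass in several other settings. Their adjusted p reached 0.193 and 0.195 for Hist1h2ad and Hist2h3c2 without exercise 1. For Hist1h2ac it reached 0.204 with the replicate number as a block. Over all libraries Hist1h1c did not pass in 6 of 22 other settings, with adjusted p from 0.0504 to 0.0845, namely without control 1, control 3, exercise 3, anti-PD-L1 4 or controls 1 and 2 together and with the replicate number as a block. Hist1h4n did not pass without anti-PD-L1 4 (adjusted p = 0.0603). Hist1h2bc and Hist2h2aa1 passed in all 22 other settings of both fits.

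In the fit over all libraries, the members with a slope past the threshold did not share 1 sign. With the group as a term all that passed were negative, and the slope of Hist1h2ap was 1.09 ± 0.43 (adjusted p = 0.122). The signs given next are those of the fit over all libraries. Hist1h2ap, whose annotated transcript ends 3 bases past the stem-loop shown above, was higher where replication genes were higher. Hist1h1c, Hist1h2ac and Hist2h3c2, whose transcripts run on for 377 bases or more, were lower there, and so was Hist1h2bc, whose annotated transcript is spliced and held no match to the stem-loop. Hist2h2aa1 and Hist1h4n, whose annotated transcripts end 35 and 31 bases past it, were also lower. These lengths are those of the annotation and not of the RNA in the libraries. Whether the length past the stem-loop went with the sign of the slope was not tested. Beside the shares given above for Hist1h2ap and Hist2h2aa1, the share of 50-base stretches that occur in other genes was 85.6% for Hist1h4n and 63.5% for Hist2h3c2, so their values are uncertain to that extent too. The points share the scaling of their library, since FPKM are relative to all mapped fragments. Of 9 marker lists set against the replication mean, 0 passed after adjustment over the 9, and 2 had an unadjusted permutation p under 0.05 for r. The B cell and plasma cell list had an r of 0.653 (permutation p = 0.00666, adjusted p = 0.0599) and a rho of 0.487 (permutation p = 0.057, adjusted p = 0.256), and all 6 of its genes were under 1 FPKM in every library. The red cell list had an r of -0.569 (permutation p = 0.0233, adjusted p = 0.105) and a rho of -0.532 (permutation p = 0.0366, adjusted p = 0.256). All 5 red cell genes were tested, none was at 0 throughout, and their sum ranged from 68.83 to 4071.3 FPKM, the highest in anti-PD-L1 4. The part of both lists in the result was not tested.

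**Figure D4:**
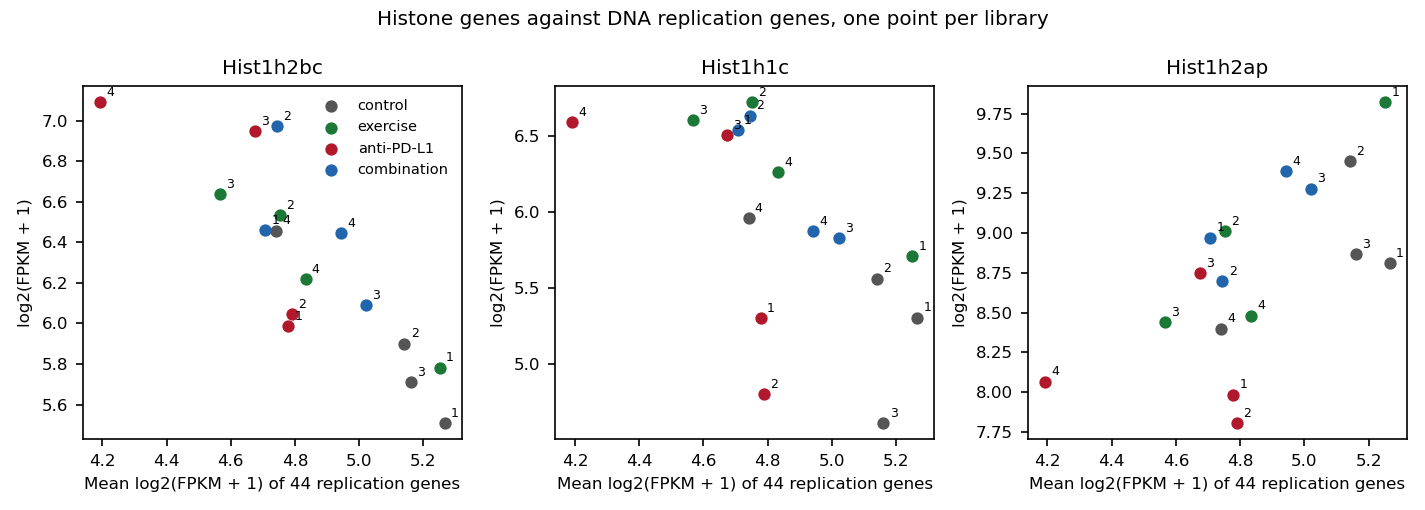
Log2(FPKM + 1) of Hist1h2bc, Hist1h1c and Hist1h2ap against the mean log2(FPKM + 1) of 44 DNA replication genes, one numbered point per library, coloured by group. Hist1h2bc falls from left to right (r = -0.854), Hist1h1c does so with more scatter (r = -0.622) and Hist1h2ap runs the other way (r = 0.637).

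Hist1h2ac and Hist1h2bc, which both had negative slopes, lie head to head, and the space between their annotated starts is shown because it is shared by both. In the RefSeq promoter table of GRCm38.p6 the stretch chr13:23683960-23684198, minus strand, 239 bases, reads 5′ to 3′ in the direction of Hist1h2ac as follows, with motif matches in capitals.
Hist1h2ac to Hist1h2bc: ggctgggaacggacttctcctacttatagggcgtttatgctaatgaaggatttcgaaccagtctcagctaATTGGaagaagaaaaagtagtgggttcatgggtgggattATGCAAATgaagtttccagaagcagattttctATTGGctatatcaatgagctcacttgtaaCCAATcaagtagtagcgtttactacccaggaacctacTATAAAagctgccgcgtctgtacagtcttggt
It holds CCAAT at positions 171 to 175 and, on the other strand, at 71 to 75 and 142 to 146, counted from its first base. It also holds the octamer ATTTGCAT on the other strand at 110 to 117, printed as ATGCAAAT, and a TATA match at 208 to 213. The octamer is the known binding motif of POU2F1, a factor of H2B gene transcription.

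Over the family, 58 members had 60 promoter entries. CCAAT, on either strand, stood in 51 of them, or 85%, against 37.4% of all 32851 promoters of the same length. TATAAA stood in 34, or 56.7%, against 13.6%, and ATTTGCAT in 13, or 21.7%, against 1.74%. All 16 H2B promoters held CCAAT and 6 of them the octamer. The letters searched do not overlap each other. A match describes the letters only, and the promoters of close copies are themselves alike. Entries of genes that lie head to head can also overlap, as for Hist1h2ae and Hist1h2bg, Hist1h2ah and Hist1h2bk, and Hist1h2ak and Hist1h2bn. Matches on either strand then count for both genes, so the 60 entries are not 60 separate stretches and these shares count some letters more than once.

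Genes that make and handle histone mRNAs were followed as lists. Of the 25 genes for stem-loop mRNA processing and histone gene transcription, 24 were tested, and 0 passed in any comparison. In anti-PD-L1 against control 22 of the 24 lay below 0, with a median of -0.22, where 6844 of all 11868 genes lay below 0. Slbp, whose protein binds the stem-loop, measured 35.1 ± 2.97 FPKM (SD, n = 4) in the controls and 28.6 ± 5.95 under anti-PD-L1, a log2 difference of -0.31 ± 0.13 (adjusted p = 0.175). Cdk2, the kinase that with cyclin E activates histone transcription in S phase, had the smallest p of the list there, with -0.43 ± 0.10 and an adjusted p of 0.0656. Ccne1, which encodes cyclin E1, differed by -0.99 ± 0.33 (adjusted p = 0.109), E2f1 by -0.45 ± 0.13 (adjusted p = 0.0894) and Cstf2 by -0.32 ± 0.11 (adjusted p = 0.12).

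The replication-independent variants, most of whose mRNAs are polyadenylated, were all 11 tested and lay below 0 in anti-PD-L1 against control, 11 of 11, with a median of -0.29, and above 0 in the combination against anti-PD-L1, 11 of 11, with a median of 0.26. None passed the threshold. H2afz, which encodes H2A.Z, measured 281 ± 44.7 FPKM in the controls and 194 ± 32.0 under anti-PD-L1 (-0.53 ± 0.15, adjusted p = 0.0799). Cenpa, the H3 variant of the centromere, measured 50.8 ± 10.6 and 33.2 ± 2.69 FPKM (-0.58 ± 0.15, adjusted p = 0.0714). H2afx and H2afy differed by -0.36 ± 0.11 (adjusted p = 0.0972) and -0.32 ± 0.09 (adjusted p = 0.0831). Among 22 histone chaperones 20 lay below 0 in that comparison, with a median of -0.24 and 0 past the threshold. Anp32e, which removes H2A.Z from nucleosomes, differed by -0.53 ± 0.12 (adjusted p = 0.0559). Nasp, which binds H3 and H4 before their deposition, differed by -0.69 ± 0.19 (adjusted p = 0.0814), Mms22l by -0.46 ± 0.14 (adjusted p = 0.0904) and Chaf1b, a subunit of the chromatin assembly factor, by -0.54 ± 0.16 (adjusted p = 0.0928).

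All 44 DNA replication genes lay below 0 in anti-PD-L1 against control, with a median of -0.45, and above 0 in the combination against anti-PD-L1, with a median of 0.24, and 0 passed in any comparison. Pcna differed from control by -0.42 ± 0.20 (adjusted p = 0.211), Tyms by -0.63 ± 0.18 (adjusted p = 0.0859), Fen1 by -0.60 ± 0.18 (adjusted p = 0.0904), Cdc6 by -0.73 ± 0.23 (adjusted p = 0.0986) and Orc1 by -0.58 ± 0.18 (adjusted p = 0.0973). All 26 mitosis genes lay below 0 there too, with a median of -0.56. Bub1b and Mad2l1 of the spindle checkpoint differed by -0.61 ± 0.12 (adjusted p = 0.0521) and -0.82 ± 0.22 (adjusted p = 0.0762), Plk1 by -0.74 ± 0.18 (adjusted p = 0.0688) and Ccnb1 by -0.60 ± 0.16 (adjusted p = 0.0762). In anti-PD-L1 against exercise 1 of the 26 mitosis genes passed, Bub1b, lower (-0.53 ± 0.12, adjusted p = 0.0449), where 1.58% of all genes passed. Beside these lists, where nearly every gene had 1 sign, the histone members had 10 above and 15 below 0 in anti-PD-L1 against control. That was near the split of all 11868 genes tested, of which 5024 lay above and 6844 below 0. In the combination against anti-PD-L1, 6550 of all genes lay above and 5318 below 0. The lists share some genes, such as Slbp and Mcm2.

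Over all libraries FPKM summed to between 478672 and 529732, and 11293 to 11873 genes reached 1 FPKM. Of 8 epithelial markers listed, 7 were in the files. Epcam, Krt8, Krt18, Krt20 and Vil1 were under 1 FPKM in every library, while the other two, Cdh1 and Krt19, reached the level for testing, and the 7 summed to 1.7 to 8.27 FPKM in the controls and 2.05 to 4.08 in the combination. Macrophage markers, all 10 tested, summed to 477.5 to 1927.4 FPKM in the controls and 375.6 to 779.2 FPKM under anti-PD-L1. Fibroblast markers, all 8 tested, summed to 370.98 to 2091.4 FPKM over all groups. The 6 B cell and plasma cell markers stayed under 1 FPKM, with a sum of 0.54 to 0.95 FPKM under anti-PD-L1 and 1.22 to 1.99 in the controls. Of the T cell markers 1 of 7 in the files was tested. Their sum was 12.77, 3.27, 2.98 and 4.85 FPKM in anti-PD-L1 libraries 1 to 4. It was 1.57 to 4.8 FPKM in the controls, 3.05 to 3.57 under exercise and 4.32 to 6.65 in the combination. Endothelial markers, 7 of 8 tested, summed to 23.69 to 115.61 FPKM, and neutrophil markers, 5 of 6 tested, to 3.53 to 32.99 FPKM. The part of these cells in the histone values was not tested.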

How the data were processed

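RNA of 16 libraries was analysed from the authors' deposited FPKM values, 2 decimals each. The submitters' processing notes name HISAT, Bowtie2 and GRCm38.p6, without version or role. The library kit, RNA selection, counting program and annotation were not given in the sources used here. FPKM hold no counts. Of 19530 values of 1338 genes under 1 FPKM, 37.2% lay within 0.15 of a whole multiple of their gene's smallest value. For 14 histone members it was 84 of 142 values, or 59.2%. Each gene's smallest value is a match by construction, and the share that unrelated values would give was not determined. Reads were not recovered from these values, and the depth is unknown.

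Values were taken as log2(FPKM + 1), and genes reaching 1 FPKM in 4 or more libraries were fitted with limma 3.58.1 in R 4.3.3 (trend and robust settings), with the group as the only term over all 16 libraries, and adjusted over all genes. The scripts were tested on simulated data. The slope on the replication mean was added after the values were seen, with permutations in Python 3.11.15. Alternatives changed the pseudocount (0.1), the filter, the normalization, the variance settings, the libraries fitted and the replicate block.

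Members, gene lists and markers were chosen with earlier results of these data known. Members named with values were the 5 with the smallest p per comparison, the highest of each type, and Hist1h1c, Hist1h2bc and Hist2h2be. From each list the 4 genes with the smallest p in anti-PD-L1 against control were named, and Slbp and Pcna. Hist2h3c2 and the genes with no test were named after their values were seen. Lists: stem-loop processing, variants, chaperones, replication, mitosis, and other RNAs without a poly(A) tail, which were not analysed here. Transcripts and coordinates are from GENCODE M21, promoters from RefSeq GRCm38.p6, to which all 63 members were matched by synonym, Hist1h2ap to 2 entries. No column was left out.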

Additional observations from a re-analysis of the deposited data

Results flagged for a closer look

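In each group of 4 libraries of the 19 named members, the highest or lowest library was compared with the others by its gap to the nearest one over the group's range on the log2 scale. This gave 76 groups, of which 7 passed Dixon's 95% critical value, while chance marks about 1 group in 20. Hist1h2ac was listed at 0 FPKM in exercise library 1, where the other exercise libraries held 2.38 to 3.22 FPKM. Hist1h2ae was listed at 0 FPKM in exercise library 1 and at 0 FPKM in anti-PD-L1 library 4. Hist1h2ad stood at 1.57 FPKM in anti-PD-L1 library 4 and at 0 in the other libraries of that group. Hist1h2br stood at 1.17 FPKM in combination library 2, against 0.29 to 0.32 FPKM in the others. Hist1h4i stood at 8.14 FPKM in combination library 1, against 1.28 to 1.63 FPKM. Hist1h4n stood at 2.91 FPKM in combination library 4, below 5.1 to 5.22 FPKM in the others. Exercise 1 and anti-PD-L1 4, which hold 2 of these each, had the replication mean at 5.25 and 4.19, the second highest and the lowest of the 16.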

How the results depend on the processing

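The count of members past the threshold was 0 in all 7 comparisons and stayed 0 in 159 combinations of comparison and alternative. It was 1 in the other 8. Leaving out each library in turn gave 0 to 1 for anti-PD-L1 against control, exercise against control and anti-PD-L1 against exercise, and 0 for the rest. For anti-PD-L1 against exercise it was 1 under quantile normalization and 1 with only the groups compared. For the named members, 827 recalculated differences kept their direction and side of the threshold and 8 passed it, with 0 reversed. With a pseudocount of 0.1 the median over the tested members was -0.50 for anti-PD-L1 against control, 0.60 for the combination against control, 0.52 for the combination against anti-PD-L1 and -0.48 for anti-PD-L1 against exercise. The cause was not tested.

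The number of members with a negative slope on the replication mean was 5 to 7 under all 22 settings tried, all chosen after the data were seen, and within groups 3 to 7. Leaving out each library gave 3 to 7 within groups, the lowest without exercise 1. The positive slope of Hist1h2ap was not past the threshold without exercise 1 or without anti-PD-L1 4, so that count was 0 to 1 when each library was left out. Hist1h1c over all libraries lost the threshold in 6 settings, with adjusted p up to 0.0845.

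With the replicate number as a block, 0 members passed in all 7 comparisons. The numbers did not pair the libraries, since same-numbered libraries had correlations of their deviations between -0.62 and 0.344 and 6 of 24 pairs were over 0.1, and 1 of 16 libraries correlated best with its own number. Over all genes the calls with the block numbered 15, against 30, for anti-PD-L1 against control and 62, against 188, for anti-PD-L1 against exercise. With the block, 4 members kept a negative slope within groups (Hist1h2bc, Hist1h4n, Hist2h2aa1 and Hist2h3c2) and 0 had a positive slope over all libraries.

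Over all genes, the calls for anti-PD-L1 against control numbered 8 without a filter, 4 without controls 1 and 2 together, 77 under median centring and 117 under quantile normalization, against 30. For anti-PD-L1 against exercise they numbered 77 without a filter and 298 under quantile normalization, against 188. Depth is unknown, so the counting error behind members near 0 cannot be given.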
